A study of Homo sapiens with 6 samples.

Results

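T24 cells transfected with si-circ235-2, the second of 2 small interfering RNAs (siRNAs) raised against circ235, were compared with T24 cells transfected with the control siRNA (NC). The comparison rested on 4 of the 6 sequenced libraries, 2 of si-circ235-2 and 2 of NC, and on the 14415 genes, of 58288 Ensembl identifiers in the deposited table, that passed a filter on low counts. The 2 libraries of si-circ235-1, the first siRNA, entered the fit to estimate the spread between replicates and to test whether a change under si-circ235-2 differed from that under the other siRNA. T24 is a human bladder cancer cell line, and all groups were the same line, transiently transfected with a lipid reagent and labelled as biological replicates, and the time from transfection to harvest is not given in the sources used here. Both siRNAs were designed against the looping site of circ235, so NC was the 1 control for both.

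A circular RNA is made when the end of a later exon is spliced back onto the start of an earlier one, which leaves a ring without a poly(A) tail. Its only sequence that the linear mRNA of the same gene lacks is the back-splice junction, and an siRNA meant for the circle alone must be laid over it. An siRNA can also lower unintended mRNAs, through pairing of its seed with their 3' untranslated regions (UTRs), and circ235 was studied as a sponge, that is, a decoy that binds the microRNA miR-330-5p and so spares the mRNAs this microRNA would repress. The 2 sequences on which those questions turn are printed here. The junction was read from CCNY, the host gene on chromosome 10, where exons 4 to 7 of the transcript CCNY-203 form a ring of 315 nucleotides (35516523 to 35530243 on GRCh38, plus strand). Lower case marks the end of exon 7 and capitals the start of exon 4. In the microRNA, from RefSeq (GRCh38.p14, chromosome 19, 45639049 to 45639070), capitals mark the seed, nucleotides 2 to 8.
back-splice junction: gccatcgtcaccctgCATCCTCCAGGACAA
hsa-miR-330-5p: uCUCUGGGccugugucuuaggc

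The libraries were made from RNA enriched with oligo dT and sequenced without strand information. A ring has no tail to be captured, so circ235 itself has no value here and its knockdown was not measured in these libraries. The libraries held 15373992 to 19912893 counts. Levels are given as CPM, counts scaled to a common library total, after TMM normalization, which sets the bulk of genes equal between libraries; the factors were 1.10 and 1.19 for si-circ235-2 and between 0.890 and 1.03 for the others. The 6 epithelial marker genes summed to 4023 to 4947 CPM (not TMM scaled) in NC and 3642 to 4015 in si-circ235-2, and 4 of them passed the filter. Nearly all of this was KRT8, KRT18 and KRT7. In these libraries CDH1 was at most 0.34 CPM and EPCAM at most 3.03, and KRT19 was at 0 except for 0.063 in NC replicate 2. The 12 urothelial markers summed to 24.4 to 26.7 CPM in NC and 59.8 to 65.8 in si-circ235-2, with UPK3A, KRT20 and KRT13 at 0 in every library. Most of that sum was PPARG, a nuclear receptor of urothelial differentiation, at 20.6 and 23.3 CPM in NC and 54.2 and 60.9 in si-circ235-2, the 1 called higher, in both fits described below, of the 3 that were tested. PPARG was at 36.2 and 41.3 CPM in si-circ235-1, and edgeR called 0 of these 3 markers between the siRNAs. Leukocyte, endothelial, fibroblast and erythroid markers summed to at most 3.41 CPM in any NC or si-circ235-2 library, with PTPRC, CD3E, LUM, COL1A2 and HBB at 0. In bulk RNA, fewer cells of a kind and less RNA per cell cannot be told apart.

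Under si-circ235-2, 70 of 79 mRNAs of cytosolic ribosomal proteins and 54 of 75 of nuclear-encoded respiratory chain subunits were called lower, and of the 30 gene lists examined the shares called higher were largest for Hippo pathway genes (14 of 25), cell adhesion and epithelial-mesenchymal transition genes (13 of 26) and matrix genes (17 of 37). In the edgeR quasi-likelihood test, 2270 genes (15.7% of those tested) were called higher and 2260 (15.7%) were called lower at a Benjamini-Hochberg adjusted p under 0.05, 4530 in all (31.4%). Of these, 1213 rose and 1182 fell by at least 2-fold, and 191 rose and 100 fell by at least 4-fold. Both si-circ235-2 libraries lay above both NC libraries for 5242 genes (36.4%) and below both for 5049 (35%). In the same fit si-circ235-1 against NC gave 323 genes higher and 524 lower.

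The change followed the length and GC content of the transcript. With genes split by length into 5 classes of equal size, in the class with the shortest transcripts (62 to 1822 nucleotides), the median log2 fold change was -0.60, with 3.09% called higher and 32.7% called lower. In the longest class (5647 nucleotides and over) it was 0.48, with 35.9% higher and 2.54% lower. Over 5 such classes by GC content, the median was -0.03 in the most GC-poor (26.9% to 41% GC), with 10.6% called higher and 7.82% lower. It was 0.30 in the next to most GC-poor (41% to 45.8% GC) and -0.51 in the most GC-rich (58.2% and over), where 35.7% of genes were called lower. With genes parted at the median of each property, 32.6% of short GC-rich genes fell and 4.17% rose, while 3.21% of long GC-poor genes fell and 28.5% rose. The median count came from a gene with a longest transcript of 2498 and 2735 nucleotides in NC, 2591 and 2515 in si-circ235-1, and 3145 and 3420 in si-circ235-2, so both si-circ235-2 libraries lay above the other 4.

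**Figure D1:**
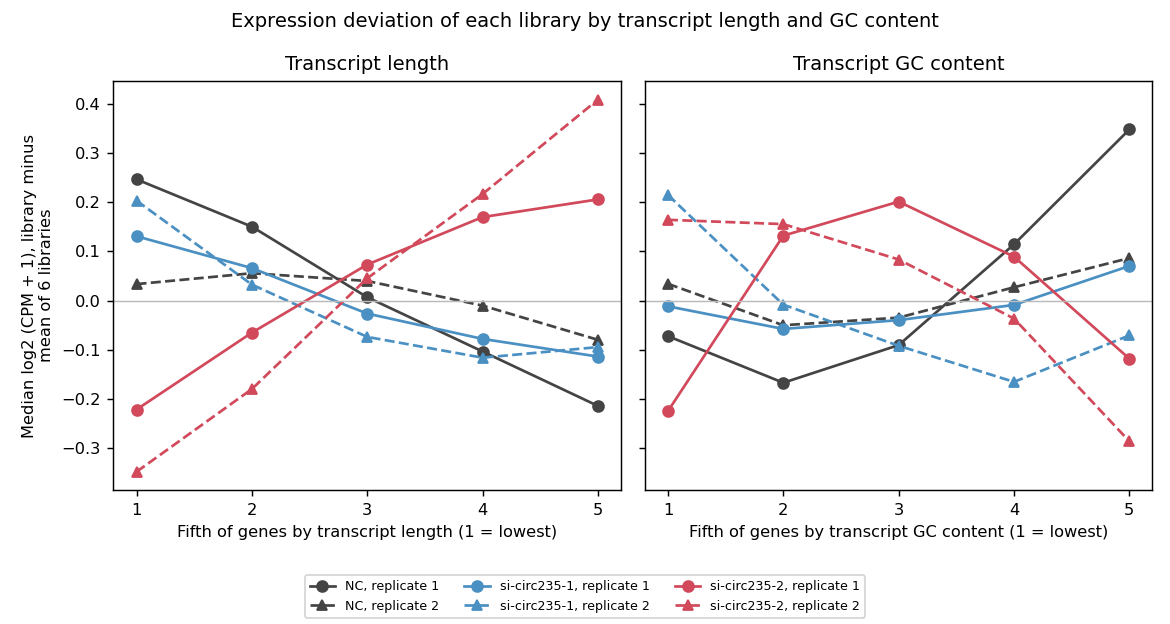
Median deviation of log2 (CPM + 1) of each library from the mean of the 6 libraries, over 5 equal classes of genes by longest-transcript length (left) and GC content (right). The si-circ235-2 libraries ran from -0.22 and -0.35 in the shortest class to 0.21 and 0.41 in the longest, against 0.25 and 0.03 to -0.21 and -0.08 in NC.

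Because of this, every gene was tested a second time after a smooth trend over length and GC content had been removed from each library. Then 1615 genes (11.2%) were called higher and 2113 (14.7%) lower. Of the genes called higher at first, 1255 (8.71% of those tested) kept the call and 1015 lost it. Of those called lower, 1397 (9.69%) kept it and 863 lost it. Newly called were 360 higher and 716 lower, and 0 changed from one direction to the other. Whether the trend was made by the siRNA or in library preparation was not tested. Both si-circ235-2 libraries carried it over length, and NC replicate 1 deviated in the opposite direction. That library's median deviation from the mean of the 6 libraries fell from 0.25 in the shortest class to -0.21 in the longest. In NC replicate 2 these values were 0.03 and -0.08. In the most GC-poor class the si-circ235-2 libraries stood on opposite sides of that mean, at -0.22 and 0.16. Under si-circ235-1 the median log2 fold change against NC went from 0.14 in the most GC-poor class to -0.26 in the most GC-rich. In the text below, "trend removed" gives the second value beside the first.

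**Figure D2:**
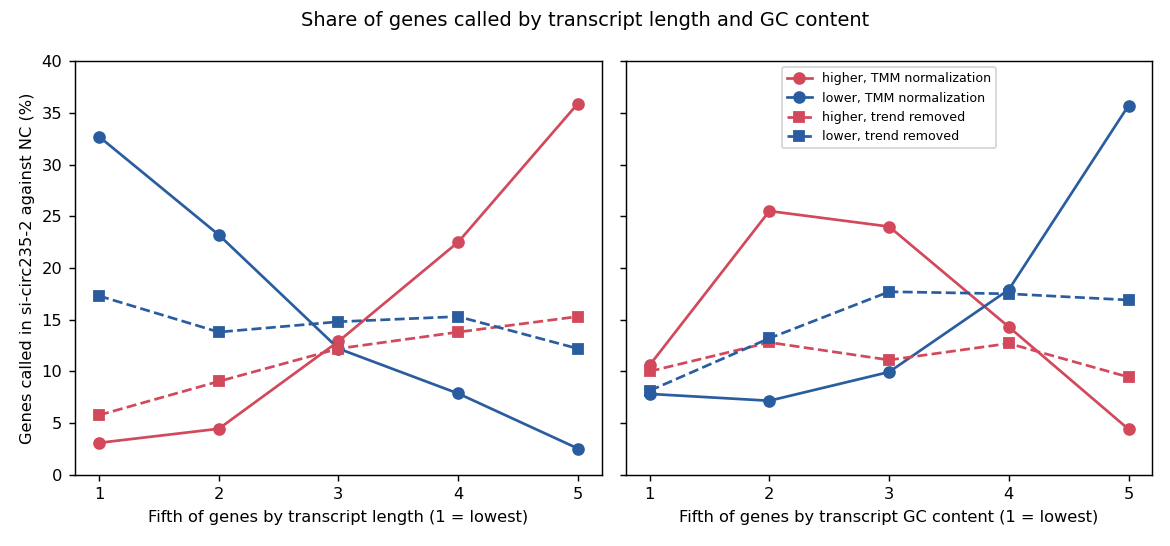
Share of genes called higher (red) or lower (blue) in si-circ235-2 against NC, in percent, over 5 equal classes by transcript length (left) and GC content (right), with TMM normalization (circles, solid lines) and with the trend removed (squares, dashed lines). From the shortest to the longest class the share called lower went from 32.7% to 2.54% with TMM normalization and from 17.3% to 12.2% with the trend removed.

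NC replicate 2 lay on the si-circ235-2 side of NC replicate 1 for 73% of all genes tested, for 90.9% of the genes called and for 24 of the 24 protein-coding genes with the largest changes. With NC replicate 1 left out, edgeR called 392 genes higher and 287 lower, 679 in all, and 431 with the trend removed; no other single library moved the 4530 calls by more than 1.5 times. Counts without this library are given beside each group below, as are those without another library that moved the larger of a list's counts by more than 1.5 times.

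The 12 protein-coding genes that rose most, among those called in both fits and averaging at least 10 CPM, rose by 2.62 to 3.43 on the log2 scale. UBE4A, a ubiquitin chain elongation factor (ENSG00000110344, chromosome 11, 118359585 to 118399211, plus strand), was at 2.43 and 4.52 CPM in NC and at 32.9 and 42.3 CPM in si-circ235-2, a rise of 3.43 (SE 0.32, adjusted p = 0.00145 from edgeR, and 2.98 with the trend removed). NFAT5, the transcription factor of the response to hypertonic stress, was at 8.27 and 10.3 CPM in NC and at 35.4 and 100.4 CPM in si-circ235-2, a rise of 2.87 with a wide gap between its treated replicates. APAF1, the scaffold of the apoptosome, was at 3.02 and 7.88 CPM in NC and at 32.3 and 41.4 CPM in si-circ235-2. ACACA, which makes malonyl-CoA in the committed step of fatty acid synthesis, was at 5.44 and 9.17 CPM in NC and at 36.9 and 52.9 CPM in si-circ235-2 (log2 fold change 2.62, SE 0.34, and 1.84 with the trend removed).

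SKA1, a microtubule-binding protein of the kinetochore, was at 1.57 and 5.75 CPM in NC and at 24 and 27.2 CPM in si-circ235-2. IGF2BP3, an oncofetal RNA-binding protein, was at 3.15 and 6.42 CPM in NC and at 27.4 and 36.6 CPM in si-circ235-2. DLG5, a scaffold of cell polarity, was at 5.31 and 16.1 CPM in NC and at 69.2 and 83.0 CPM in si-circ235-2. The remaining rises were MT-ND4L, ASAP2, an Arf GTPase-activating protein, SINHCAF, a subunit of the Sin3-HDAC complex, PCDHGC3, a protocadherin, and HAVCR1, a surface receptor also called KIM-1. For all 12 the NC and si-circ235-2 libraries did not overlap, which the rule for naming them required. Their longest transcripts had a median of 5219 nucleotides and 43.3% GC.

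Among the 12 largest falls, SAA1, an acute-phase apolipoprotein (ENSG00000173432, chromosome 11, 18266174 to 18269977, plus strand), was at 54.8 and 29.4 CPM in NC and at 7.43 and 4.68 CPM in si-circ235-2, a log2 fold change of -2.80 (SE 0.33, adjusted p = 0.00179 from edgeR, and -2.52 with the trend removed). LSM7, a subunit of the LSM ring that binds U6 small nuclear RNA, was at 217 and 98.0 CPM in NC and at 28.3 and 20.3 CPM in si-circ235-2. EDF1, a transcriptional co-activator that also senses collided ribosomes, was at 965 and 435 CPM in NC and at 134 and 107 CPM in si-circ235-2. RPL36, a protein of the large ribosomal subunit, was at 1695 and 806 CPM in NC and at 258 and 201 CPM in si-circ235-2 (log2 fold change -2.45, and -1.59 with the trend removed).

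POLR2L, a small subunit shared by the nuclear RNA polymerases, was at 547 and 264 CPM in NC and at 94.4 and 66.4 CPM in si-circ235-2. SEM1, a small proteasome subunit with an AT-rich transcript (31.8% GC), was at 112 and 67.2 CPM in NC and at 18.4 and 15.4 CPM in si-circ235-2. The other falls were PFDN6, a prefoldin subunit, FKBP2, a prolyl isomerase of the endoplasmic reticulum, NUDT1, which clears oxidized nucleotides, TMEM238, ZNF358 and MRPL4, a protein of the mitochondrial ribosome, and they fell by 2.20 to 2.58. Removing the trend left a smaller fall for each of the 12, from -0.84 for TMEM238 to -2.52 for SAA1. Their longest transcripts had a median of 954 nucleotides and 61.0% GC, and 0 of the 12 exceeded the median length of all genes tested.

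**Figure D3:**
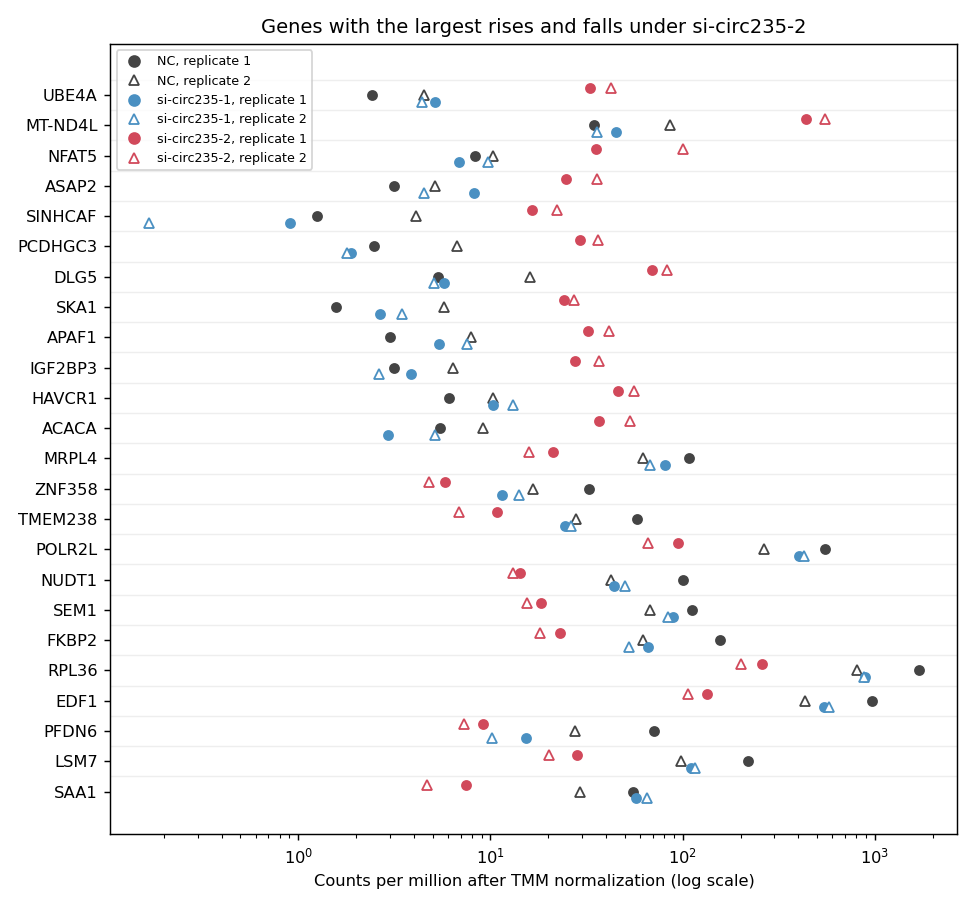
CPM after TMM normalization (log axis) of the 12 protein-coding genes with the largest rises and the 12 with the largest falls; each point is 1 library, with filled circles for replicate 1 and open triangles for replicate 2. NC replicate 2 lies between NC replicate 1 and the si-circ235-2 libraries for all 24 genes, and the si-circ235-1 libraries lie mostly beside NC.

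These changes were set against the other siRNA by testing si-circ235-2 against si-circ235-1 directly, a comparison in which edgeR called 39.7% of all genes (21.1% higher and 18.6% lower, and 40.4% in either direction with the trend removed). All 12 rises were called there, with and without the trend. Of the 12 falls 11 were called, 9 with the trend removed, and PFDN6 was not. It was at 15.2 and 10.2 CPM under si-circ235-1 against 9.20 and 7.27 CPM under si-circ235-2 (log2 difference -0.63, adjusted p = 0.229 from edgeR). UBE4A, at 5.18 and 4.41 CPM under si-circ235-1, lay 2.97 higher under si-circ235-2 on the log2 scale, and SAA1, at 57.1 and 65.3 CPM under si-circ235-1, differed by -3.34.

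Long noncoding RNA genes were named by the same rule. H19, an imprinted fetal RNA (chromosome 11, 1995176 to 2001470, minus strand), was at 34.6 and 27.7 CPM in NC, at 10.1 and 6.25 CPM in si-circ235-1 and at 6.08 and 4.54 CPM in si-circ235-2. Against the same NC libraries it fell under both siRNAs, by 2.56 and, for si-circ235-1, by 1.93 on the log2 scale, and the siRNAs did not differ by the test (adjusted p = 0.118 from edgeR). PAX8-AS1, which overlaps PAX8 on the opposite strand, was at 5.05 and 6.54 CPM in NC and at 22.2 and 27.2 CPM in si-circ235-2, and counts without strand cannot separate the pair. ENSG00000269825 rose by 3.64, from 1.05 and 1.96 CPM to 12.4 and 25.5 CPM, and overlaps ZNF83. ENSG00000226332 fell by 1.7, from 19 and 12.1 CPM to 5.13 and 4.45 CPM, and overlaps ADRM1.

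Ribosomal protein mRNAs gave the largest fall of any of the 30 gene lists by median, with TMM normalization and with the trend removed. These mRNAs start with a run of pyrimidines through which mTOR signalling sets their translation, and they are among the shortest and most abundant in a growing cell. Of the 79 cytosolic ribosomal protein genes, all tested, 70 fell and 0 rose, against 15.7% of all genes lower, with a median log2 fold change of -1.21 beside -0.00 over all genes. The fall held with the trend removed (67 lower, 0 higher, median -1.06) and against si-circ235-1 (72 lower and 1 higher). The trend was fitted on longest annotated transcripts, with a median of 1857 nucleotides for this list, which need not be the mRNAs expressed. That fit therefore cannot show whether the fall is separate from the length trend. By subunit, 41 of 47 large and 29 of 32 small subunit genes fell.

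RPL8, of the large subunit, was at 5748 and 3302 CPM in NC and at 1316 and 1012 CPM in si-circ235-2. Ribosomal protein genes took 17.5% and 13.6% of all counts in NC, 15% and 18.2% in si-circ235-1, and 8.50% and 7.29% in si-circ235-2. The 9 members not called ranged from -0.69 to 0.74, the highest being RPL17. Ribosomal protein genes have many processed pseudogenes, and how reads matching both were counted is not given in the sources used here. With NC replicate 1 left out the lower calls went from 70 to 11 (24 with the trend removed) and the median of the cytosolic ribosomal proteins from -1.21 to -0.92.

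Nuclear-encoded subunits of the respiratory chain fell as well. Of 75 genes 54 fell and 1 rose, with a median of -0.99 (51 and 2 with the trend removed, median -0.78). The limit given for ribosomal protein genes, the use of longest transcripts (here a median of 1439 nucleotides), holds here too. Complex IV, cytochrome c oxidase, fell in 10 of 10 members, complex III in 8 of 9, complex I in 29 of 37 and complex V, the ATP synthase, in 7 of 15, while in complex II 0 of 4 were called (-0.16 to 0.44). In the trend-removed fit complexes I, III, IV and V had 27, 7, 8 and 9 members lower and medians of -0.78, -0.99, -0.80 and -0.82, and differences between complexes were not tested. COX6B1, of complex IV, was at 523 and 329 CPM in NC and at 127 and 88.2 CPM in si-circ235-2. NDUFB7, of complex I, was at 99.4 and 56.2 CPM in NC and at 22.8 and 17.6 CPM in si-circ235-2. The 1 member called higher, NDUFA7, had at most 1.06 CPM in any of these libraries and overlaps RPS28 on the opposite strand. When NC replicate 1 was left out, 15 members were lower and 0 higher.

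The mRNAs encoded in mitochondrial DNA did not share this fall, with a median of 0.02 over 13 genes. MT-ND4L was at 34.8 and 86.4 CPM in NC and at 436 and 552 CPM in si-circ235-2 (log2 fold change 3.03), and MT-ATP8 went from 2.10 and 2.51 CPM to 15.6 and 19.6 CPM (2.93). Each of these 2 short genes overlaps the start of a longer one on the same mRNA, MT-ND4 (log2 fold change 0.11, not called) and MT-ATP6 (-0.00, not called), so their values depend on how shared reads were assigned. MT-ND5 rose from 573 and 766 CPM to 1626 and 1831 CPM, while MT-CO3 (-0.83) and MT-ND3 (-0.73) were called lower. Leaving out NC replicate 1 left 2 of the higher calls, and the 2 lower calls were lost without any 1 of NC replicate 1, NC replicate 2, either si-circ235-1 library or si-circ235-2 replicate 2. Mitochondrial counts made up 4.59% and 5.27% of each NC library and 5.93% and 5.60% of each si-circ235-2 library.

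The mitochondrial ribosome, which translates those mRNAs and is built of nuclear-encoded proteins, was lower in 44 of 80 genes and higher in 0 (median -0.69). With the trend removed 33 were lower and 1, MRPL15, was higher (median -0.35). MRPL12 was at 36.4 and 19.4 CPM in NC and at 7.26 and 6.69 CPM in si-circ235-2. The lower calls were 8 in either fit without NC replicate 1, and 26 of 80 when si-circ235-2 replicate 2 was left out.

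Other core machines of the cell fell in part. In the spliceosome list 23 of 47 fell and 4 rose (median -0.70, and with the trend removed 20 and 2, median -0.40). All 7 Sm proteins and 6 of 7 LSM proteins, the small rings around the spliceosomal RNAs, were lower, while the 4 higher members were PRPF8, SNRNP200, DHX8 and SF3A1, the first 3 being large scaffold or helicase proteins. SF3A2 was at 297 and 153 CPM in NC and at 70.0 and 50.8 CPM in si-circ235-2. In the proteasome 23 of 43 fell and 3, PSMD5, PSME3 and PSME4, rose (median -0.61, and with the trend removed 16 and 2, median -0.29), with 12 of 14 in the core particle and 6 of 20 in the regulatory particle lower. PSMB3, of the core particle, was at 544 and 373 CPM in NC and at 209 and 161 CPM in si-circ235-2. The lower calls without NC replicate 1 were 5 in the spliceosome and 1 in the proteasome. Leaving out si-circ235-2 replicate 2 left 11 lower calls in the proteasome, and leaving out NC replicate 2 left 1 higher call in the spliceosome. Tested against si-circ235-1, 24 spliceosome genes were lower and 8 higher, 26 proteasome genes were lower and 2 higher, and 57 of the 75 respiratory chain genes were lower and 1 higher.

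Small nucleolar RNA host genes, many of whose transcripts carry the same pyrimidine start as ribosomal protein mRNAs, were lower in 12 of 25 and higher in 2, SNHG14 and SNHG16 (median -0.80). With the trend removed 13 were lower and 0 higher (median -0.60). SNHG5 was at 50.8 and 35 CPM in NC and at 20.1 and 16.6 CPM in si-circ235-2. Their median stood at -0.71 and -0.88 in the si-circ235-2 libraries and at -0.55 and -0.16 in those of si-circ235-1, relative to the NC mean. When NC replicate 1 was left out, 0 were called, and 1 with the trend removed.

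Ribosome biogenesis and RNA polymerase I genes, which make and process ribosomal RNA, split into 18 lower and 8 higher of 54 (median -0.27; 19 and 4 with the trend removed). BOP1, a pre-60S factor, was at 568 and 354 CPM in NC and at 180 and 154 CPM in si-circ235-2. RRN3, the initiation factor of RNA polymerase I, rose from 5.25 and 12.2 CPM to 35.5 and 41.3 CPM. The calls were 3 lower and 1 higher without NC replicate 1, and 11 and 6 when si-circ235-2 replicate 2 was left out. With no TMM factors the median of this list was -0.01.

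**Figure D4:**
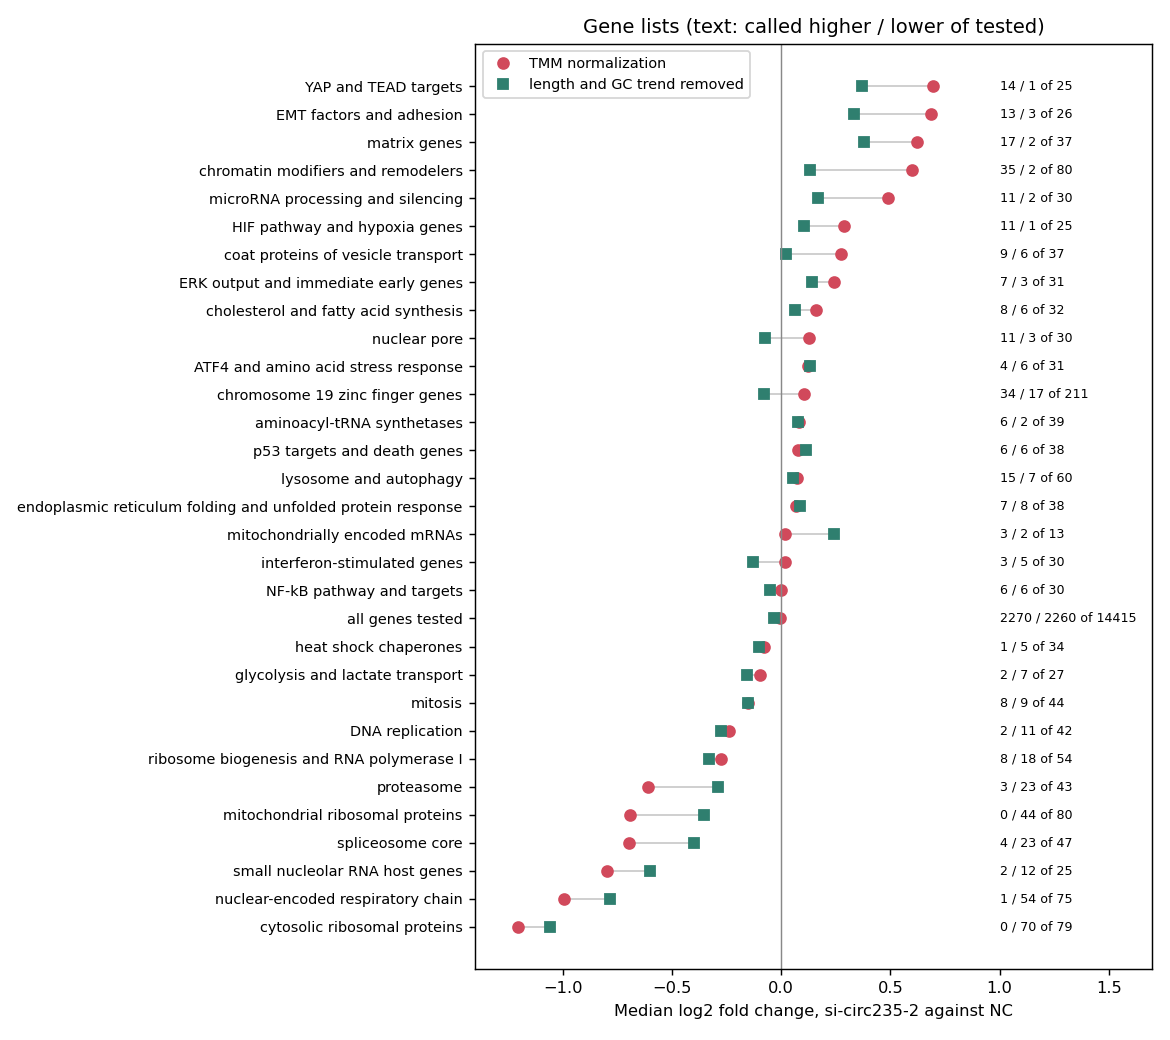
Median log2 fold change of the tested members of each of 30 gene lists and of all genes, si-circ235-2 against NC, with TMM normalization (red circles) and with the trend removed (green squares); the text gives the members called higher and lower of those tested, with TMM normalization. The lists run from 0.69 for YAP and TEAD targets to -1.21 for cytosolic ribosomal proteins, and most medians move toward 0 when the trend is removed.

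Matrix genes were called higher more often than lower. Of 60 collagen, laminin and other matrix genes 37 passed the filter, and 17 of these were higher and 2, COL16A1 and COL6A2, were lower (median 0.62, and with the trend removed 11 and 3, median 0.38, the lower ones being COL16A1, COL4A2 and THBS1), and 18 were not called. The 9 laminins had 4 members higher and a median of 0.68, and 0.06 with the trend removed. COL4A1, a chain of basement membrane collagen (chromosome 13, 110148963 to 110307233, minus strand), was at 18.4 and 24.1 CPM in NC and at 85.1 and 91.4 CPM in si-circ235-2, a log2 fold change of 2.05 (SE 0.20, adjusted p = 0.00145 from edgeR, and 1.68 with the trend removed). It stood at 80.2 and 79.9 CPM under si-circ235-1, and the siRNAs did not differ by the test (difference 0.14, adjusted p = 0.580). LAMA1 rose from 0.131 and 0.244 CPM to 1.89 and 1.96 CPM, low levels throughout.

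Cell adhesion genes and factors of the epithelial-mesenchymal transition (EMT), of which 26 of 33 were tested, were higher in 13 and lower in 3 (median 0.69, and with the trend removed 9 and 2, median 0.33). The members that rose and are printed here are an integrin chain and epithelial junction proteins. ITGB1, the integrin beta-1 chain that binds matrix, was at 261 and 424 CPM in NC and at 858 and 1102 CPM in si-circ235-2. TJP1 and DSP are epithelial junction proteins, ZO-1 of the tight junction and desmoplakin of the desmosome. TJP1 rose from 7.81 and 9.53 CPM to 24.6 and 36.8 CPM and DSP from 50.1 and 58.8 CPM to 139 and 153 CPM. The 3 lower members were CLDN4, JUP and TGFB1.

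Hippo signalling restrains the co-activators YAP and TAZ, which act through TEAD factors. Of 25 genes of this pathway and its targets 14 were higher and 1, TEAD4, was lower (median 0.69, and with the trend removed 10 and 2, median 0.37). YAP1 itself was at 56.3 and 72.8 CPM in NC and at 147 and 156 CPM in si-circ235-2. LATS2, a kinase that inhibits YAP and is also its target, was at 15.7 and 19.2 CPM in NC and at 39.2 and 42.0 CPM in si-circ235-2. PTPN14, another inhibitor, rose from 68.5 and 77.6 CPM to 182 and 192 CPM (log2 fold change 1.35, and 0.51 with the trend removed), so YAP1 and inhibitors of YAP both rose. The 2 members called lower with the trend removed were AXL, a target, and WWTR1, which encodes TAZ. The higher calls without NC replicate 1 were 3 of 25 here, 4 of 26 among EMT and adhesion genes and 5 of 37 among matrix genes, and 0, 1 and 3 with the trend removed. They were 9 for the Hippo list and 11 for the matrix list when si-circ235-2 replicate 2 was left out, and 0 of either list was then lower. In the trend-removed fit the 10 higher calls of the Hippo list became 6 without NC replicate 2 and 5 without either si-circ235-2 library, and the 11 of the matrix list became 6 and 7 without the first and the other si-circ235-2 library. Tested against si-circ235-1 with TMM normalization, 13 of the 25 Hippo genes were higher and 1 lower, 11 of the 26 EMT and adhesion genes were higher and 3 lower, and 14 of the 37 matrix genes were higher and 4 lower. Of all genes 21.1% were higher and 18.6% lower there. With the trend removed the matrix median relative to the NC mean was 0.24 and 0.26 under si-circ235-2, beside 0.22 and 0.24 under si-circ235-1. It was 0.34 and 0.30 beside 0.02 and -0.12 for the Hippo list, and 0.31 and 0.28 beside 0.05 and 0.15 for EMT and adhesion genes.

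Chromatin modifiers have long mRNAs. Of 80 genes 35 rose and 2, KAT2A and SMARCA4, fell (median 0.60), but with the trend removed 18 rose and 8 fell and the median was 0.13. With the trend over length alone removed 18 rose and 9 fell (median 0.25), and with that over GC content alone 34 rose and 4 fell (median 0.44). KMT2D, a histone H3 lysine 4 methyltransferase with a longest transcript of 19419 nucleotides, was at 20.3 and 28.4 CPM in NC and at 75.4 and 108 CPM in si-circ235-2 (log2 fold change 1.91, and 1.52 with the trend removed). TET3, which oxidizes 5-methylcytosine, was at 6.95 and 6.36 CPM in NC and at 20.3 and 26.1 CPM in si-circ235-2. The calls were 10 higher and 0 lower without NC replicate 1, and 28 and 5 when si-circ235-2 replicate 2 was left out. Nuclear pore genes, with 11 of 30 higher, 3 lower and a median of 0.13, had 5 in each direction and a median of -0.07 with the trend removed. NUP160, of the Y complex, was at 37.7 and 60.0 CPM in NC and at 107 and 120 CPM in si-circ235-2. There was 1 call without NC replicate 1 and 0 with the trend removed as well. The higher calls were 7 when si-circ235-2 replicate 2 was left out, and the lower calls were 1 when either si-circ235-1 library or si-circ235-2 replicate 1 was.

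The zinc finger genes of chromosome 19 also changed with the correction. Of 211 tested (232 with counts), 34 (16.1%) were higher and 17 (8.06%) lower, against 15.7% of all genes in each direction, and the median was 0.11. Once the trend was removed 16 were higher and 15 lower, and the median was -0.08. ZNF699 rose from 0.459 and 0.183 CPM to 4.84 and 4.97 CPM. The calls were 3 higher and 4 lower without NC replicate 1, and 22 in each direction when si-circ235-2 replicate 2 was left out. Chromosome 19 as a whole, the most GC-rich of the chromosomes by median transcript, had 32.3% of its genes called lower and 6.5% higher, with a median log2 fold change of -0.41 (-0.18 with the trend removed).

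**Figure D5:**
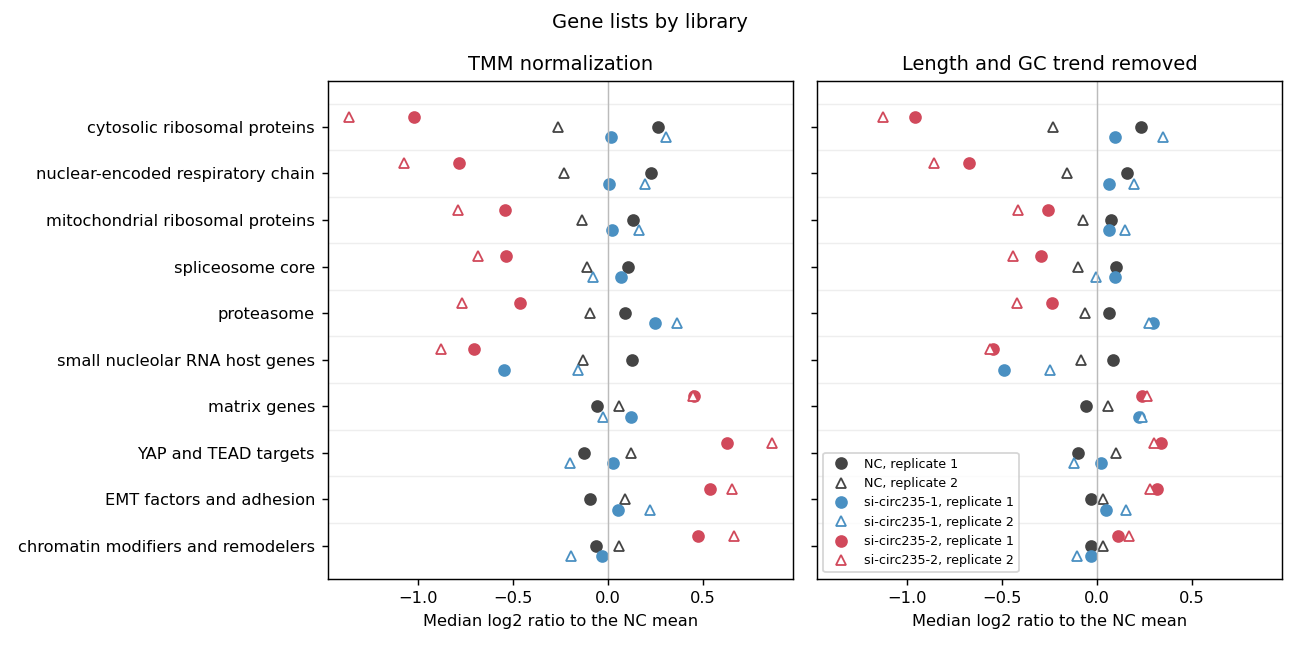
Median log2 ratio to the NC mean over the members of 10 lists in each library (filled circles, replicate 1; open triangles, replicate 2), with TMM normalization (left) and with the trend removed (right). Cytosolic ribosomal proteins stood at -1.02 and -1.36 in the si-circ235-2 libraries against 0.02 and 0.31 in those of si-circ235-1; with the trend removed matrix genes stood at 0.24 and 0.26 against 0.22 and 0.24.

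Because circ235 was studied as a microRNA sponge that acts on glycolysis, the genes of those steps were read one by one. The machinery of microRNA processing and silencing was higher in 11 of 30 genes and lower in 2, TARBP2 and MOV10 (median 0.49), but with the trend removed it was higher in 4, AGO2, AGO4, CNOT1 and DDX6, and lower in 1, MOV10 (median 0.17). The 4 are 13.3% of the list, against 11.2% of all genes in that fit, and they became 1 without NC replicate 2 or si-circ235-2 replicate 1. CNOT1, the scaffold of the CCR4-NOT deadenylase, was at 37 and 73.8 CPM in NC and at 267 and 327 CPM in si-circ235-2 (log2 fold change 2.42). AGO2, the Argonaute that cleaves siRNA targets, was at 70.4 and 76.6 CPM in NC, at 125 and 128 CPM in si-circ235-1 and at 162 and 186 CPM in si-circ235-2. Its rise of 1.25 became 0.38 with the trend removed (adjusted p = 0.0476 from edgeR), and its longest transcript has 14581 nucleotides. The difference of si-circ235-2 from si-circ235-1 was 0.46 and not called (adjusted p = 0.0585 from edgeR). With the trend removed it was -0.36 and called lower (adjusted p = 0.0399 from edgeR). With NC replicate 1 left out the list had 2 higher calls and 0 lower, and 0 calls once the trend was removed as well. The 2 lower calls became 1 without either si-circ235-1 library or si-circ235-2 replicate 1.

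Glycolysis and lactate transport genes fell in 7 of 27 and rose in 2, HK2 and PFKFB3 (median -0.10, and with the trend removed 8 and 3, median -0.15). The 7 and 2 were 25.9% and 7.41% of the list, against 15.7% of all genes in each direction. SLC16A3, which encodes the lactate exporter MCT4 (chromosome 17, 82228397 to 82261129, plus strand), was at 436 and 311 CPM in NC (374 ± 88.2, SD, n = 2), at 375 and 280 CPM in si-circ235-1 and at 229 and 194 CPM in si-circ235-2 (212 ± 24.4). MCT4 mRNA thus had a log2 fold change of -0.82 (SE 0.23, adjusted p = 0.0216 from edgeR, and -0.72 with the trend removed) under si-circ235-2 and -0.19 (adjusted p = 0.656) under si-circ235-1, and the difference between the siRNAs was -0.63 (adjusted p = 0.0491). It overlaps CSNK1D on the opposite strand. ALDOA, aldolase A, was at 1908 and 1353 CPM in NC and at 962 and 786 CPM in si-circ235-2. PFKFB3, which makes the allosteric activator of phosphofructokinase, moved the other way, from 46.6 and 69.4 CPM to 179 and 186 CPM. Calls in this list were few and depended on single libraries. The 7 lower calls became 0 when NC replicate 1 was left out, 1 when si-circ235-2 replicate 2 was, and 4 when either si-circ235-1 library was, and the 2 higher calls became 1 in each case. With no TMM factors the median was 0.16.

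CCNY, the host gene of circ235 (chromosome 10, 35247025 to 35572669, plus strand), was at 61.3 and 65.2 CPM in NC and at 63.9 and 55.5 CPM in si-circ235-2 (log2 fold change -0.08, adjusted p = 0.766 from edgeR). The libraries overlapped, and the counts come from linear mRNA and do not check the knockdown of the ring. With the trend removed its value was -0.59 (adjusted p = 0.0209), and without TMM factors 0.17. PAK4, a p21-activated kinase, was at 117 and 106 CPM in NC, at 38.7 and 26.1 CPM in si-circ235-1 and at 72.9 and 59.9 CPM in si-circ235-2, a fall of 0.75 (adjusted p = 0.0246 from edgeR) that was smaller than under si-circ235-1 (difference 1.04, adjusted p = 0.00449). CPNE1, a copine (chromosome 20, 35626031 to 35664956, minus strand), was at 515 and 403 CPM in NC, at 380 and 382 CPM in si-circ235-1 and at 174 and 136 CPM in si-circ235-2. It fell by 1.57 (adjusted p = 0.00179 from edgeR, and 1.30 with the trend removed), and it overlaps RBM12.

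The 7-nucleotide word that pairs with the printed seed of miR-330-5p, CCCAGAG, was found in the longest 3' UTR of 2490 of 12143 genes (20.5%), read on the strand of the mRNA. The median log2 fold change of these genes was 0.20, against -0.03 for genes without the word, and 12.4% of them were called lower, against 18.1%. With the trend removed the medians were -0.01 and -0.06. In a regression on UTR length, UTR GC content and mean level, the word went with a difference of 0.07, and of 0.00 with the trend removed, where 16352 other words gave -0.11 to 0.04 from their 5th to their 95th percentile. With the shortest 3' UTR of each gene instead, 1146 genes held the word, with a median of 0.17, against -0.00 without it, and of 0.04 against -0.06 with the trend removed. The regression then gave 0.098, and 0.090 with the trend removed, above the range just given, which was computed on the longest UTRs. These are descriptions across genes, which are not independent replicates. Words within 20 nucleotides of the printed junction were read on either strand. The lowest with the trend removed was TGACGAT, on the complement strand, in 215 genes, at -0.21 under si-circ235-2 and -0.00 under si-circ235-1. It was picked as the lowest of 34 words on each strand after the values were seen. Its value lay below the 5th percentile of other words given above, -0.11 with the trend removed. The lowest of many words can lie there by its selection alone, so this comparison is no test of the word. With the trend removed the median of its genes was -0.19, against -0.05 for genes without it. With TMM normalization the medians were 0.04 and 0.01, and 16.7% of its genes were called lower, against 16.9% of those without it. On the strand of the circle the lowest word, picked in the same way, was TGCATCC, which spans the junction, in 1270 genes. It was at -0.155 with the trend removed, and at -0.01 under si-circ235-1. Of its genes 13.3% were called lower with TMM normalization, against 17.3% of those without it. The siRNA sequences were not used here.

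Hypoxia genes lost most of their calls when the trend was removed. Of 25 tested (26 with counts) 11 were higher and 1, ANGPTL4, was lower (median 0.29), but 2, EPAS1 and ERO1A, were higher with the trend removed (median 0.11). The share higher went from 44%, against 15.7% of all genes, to 8%, against 11.2% of all genes in that fit. EPAS1, which encodes HIF-2 alpha, was at 61.3 and 64.6 CPM in NC and at 158 and 155 CPM in si-circ235-2. ANGPTL4, an inhibitor of lipoprotein lipase, was at 86.5 and 63.1 CPM in NC, at 195 and 169 CPM in si-circ235-1 and at 23.9 and 22.2 CPM in si-circ235-2, so the siRNAs moved it in opposite directions on the log2 scale, by 1.28 and -1.7 against the same NC libraries (difference -2.98, adjusted p = 0.000211 from edgeR). Leaving out NC replicate 1 gave 2 higher calls, leaving out NC replicate 2 gave 7, and leaving out the first or the other si-circ235-2 library gave 5 or 7.

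Sterol and fatty acid synthesis genes went both ways, 8 higher and 6 lower of 32 (7 and 4 with the trend removed, and 3 and 1 without NC replicate 1). The 8 and 6 were 25% and 18.8% of the list, against 15.7% of all genes in each direction. HMGCS1, which feeds the mevalonate pathway, was at 14.3 and 20.6 CPM in NC and at 41.1 and 54.8 CPM in si-circ235-2, while EBP, a late enzyme of cholesterol synthesis, fell from 224 and 152 CPM to 82.4 and 64.0 CPM. Among DNA replication genes 11 of 42 fell and 2, GINS4 and RRM1, rose (median -0.24, and with the trend removed 13 and 2, median -0.28; 0.01 without TMM factors). The 11 and 2 were 26.2% and 4.76% of the list. POLD2, of DNA polymerase delta, was at 407 and 293 CPM in NC and at 166 and 127 CPM in si-circ235-2. The calls were 1 lower and 0 higher without NC replicate 1, and 3 lower and 1 higher without si-circ235-2 replicate 2. The 13 lower calls of the trend-removed fit became 8 and 7 without the first and the other si-circ235-2 library.

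Mitosis genes split as 8 higher and 9 lower of 44 (5 and 8 with the trend removed; 2 and 0 without NC replicate 1; 6 and 15 without si-circ235-2 replicate 2). These were 18.2% and 20.5% of the list, near the 15.7% of all genes in each direction. BUB1B, of the spindle checkpoint, was at 17.8 and 24 CPM in NC and at 55.0 and 62.6 CPM in si-circ235-2. PRR11 was at 35.5 and 48.3 CPM in NC, at 12.9 in each si-circ235-1 library and at 101 and 109 CPM in si-circ235-2, with the siRNAs 3.02 apart on the log2 scale (adjusted p = 0.000211 from edgeR). It overlaps PRR11-AS1 on the opposite strand.

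Double-stranded RNA can set off an interferon response, and of 42 interferon-stimulated genes 30 were tested, with 3 higher, among them OAS3 and ADAR, and 5 lower, IFI6, IFITM3, ISG15, ISG20 and IFI35 (median 0.02, and with the trend removed -0.13, where 2 were higher and 4 lower). At 10% higher and 16.7% lower, the list had no larger share higher, and about the same share lower, than the 15.7% of all genes in each direction. IFI6, an effector among these genes, was at 31.5 and 22.4 CPM in NC and at 6.55 and 5.26 CPM in si-circ235-2. OAS3, a sensor of double-stranded RNA, rose from 35.9 and 37.9 CPM to 89.0 and 95.2 CPM. NF-kB genes gave 6 in each direction of 30 tested, 20% beside the 15.7% of all genes. With the trend removed 8 were higher and 2 lower, 26.7% and 6.67%, beside 11.2% and 14.7% of all genes. NFKBIZ, an atypical inhibitor and co-activator of the pathway, went from 50.6 and 67.3 CPM to 143 and 149 CPM, opposite to SAA1. With NC replicate 1 left out the interferon list had 2 calls in each direction and the NF-kB list 1 in each, and with si-circ235-2 replicate 1 left out the interferon list had 5 higher and 6 lower.

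ERK output and immediate early genes were higher in 7 of 31 and lower in 3, JUNB, JUND and FOSL1 (7 and 2 with the trend removed). These became 1 and 0 without NC replicate 1, 4 and 4 without si-circ235-2 replicate 1, and 6 and 1 when its other replicate was left out. EREG, a ligand of the EGF receptor, was at 66.4 and 78.0 CPM in NC, at 159 and 248 CPM in si-circ235-1 and at 163 and 189 CPM in si-circ235-2. Of 38 p53 targets and death genes 6 were called in each direction (9 higher and 5 lower with the trend removed; 1 in each without NC replicate 1), among them MCL1, an inhibitor of apoptosis, which rose from 191 and 237 CPM to 490 and 467 CPM. The ATF4 and amino acid stress list had 4 higher and 6 lower of 31, the higher ones being ASNS, SLC7A1, ALDH1L2 and VLDLR (6 and 5 with the trend removed). The calls became 1 higher and 2 lower without NC replicate 1, and the higher calls 2 when any other NC or si-circ235-2 library was left out. SLC7A1, a carrier of cationic amino acids, went from 54.1 and 70.5 CPM to 191 and 204 CPM. NUPR1, a stress-induced chromatin protein, went from 21.3 and 10.9 CPM to 2.12 and 2.87 CPM, a log2 fold change of -2.68 (-3.24 with the trend removed). The second value takes NUPR1 as 5491 nucleotides long, the length of its longest annotated transcript, which need not be the one expressed.

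The p53 list, at 15.8% in each direction, and the ATF4 list, at 12.9% higher and 19.4% lower, were near the shares over all genes. The ERK list was at 22.6% higher and 9.68% lower, against 15.7% of all genes in each direction.

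The remaining lists had calls in both directions. With TMM normalization the endoplasmic reticulum list, at 18.4% higher and 21.1% lower, was near the 15.7% of all genes in each direction. Heat shock chaperones, at 2.94% and 14.7%, and aminoacyl-tRNA synthetases, at 15.4% and 5.13%, did not exceed that share either way. With the trend removed 23.5% of the heat shock list was lower, against 14.7% of all genes. Genes of endoplasmic reticulum folding and the unfolded protein response were higher in 7 and lower in 8 of 38 (5 and 9 with the trend removed). They were 2 and 1 without NC replicate 1, 8 and 5 without si-circ235-2 replicate 1, and 5 and 4 when its other replicate was left out. EDEM1, of endoplasmic reticulum degradation, rose from 26.7 and 31.7 CPM to 82.5 and 81.5 CPM. Heat shock chaperones were lower in 5 of 34, HSPB1, CDC37, BAG1, HSPE1 and CCT7, and higher in 1, HSPA9 (0 higher and 8 lower with the trend removed; 1 lower without NC replicate 1). HSPB1, a small heat shock protein, fell from 505 and 306 CPM to 151 and 124 CPM. Aminoacyl-tRNA synthetases were higher in 6 and lower in 2, FARSA and VARS1, of 39 (3 and 5 with the trend removed). Leaving out NC replicate 1 left 0 calls, and leaving out the first or the other si-circ235-2 library left 3 or 2 higher.

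Lysosome and autophagy genes were higher in 15 (25%) and lower in 7 (11.7%) of 60 (13 and 9 with the trend removed). They were 4 and 1 without NC replicate 1, 9 and 8 without si-circ235-2 replicate 1, and 11 and 4 when its other replicate was left out. NPC1, which exports cholesterol from lysosomes, rose from 39.7 and 58.1 CPM to 175 and 174 CPM. Coat proteins of vesicle transport were higher in 9 (24.3%) and lower in 6 (16.2%) of 37. The counts were 4 and 6 with the trend removed, and 1 and 2 without NC replicate 1. Of all genes 15.7% were called in each direction with TMM normalization. SEC24C, a cargo adaptor of COPII vesicles, went from 4.66 and 14.4 CPM to 40.6 and 46.5 CPM, and AP2S1, the small chain of the AP-2 adaptor, from 564 and 325 CPM to 155 and 114 CPM. The longest transcripts of SEC24C and AP2S1 have 4668 and 935 nucleotides. In the trend-removed fit, single libraries other than NC replicate 1 moved the larger count by more than 1.5 times in further lists. Leaving out si-circ235-2 replicate 2 took the lower calls of the proteasome from 16 to 10, of the spliceosome from 20 to 13, of the glycolysis list from 8 to 3, of the endoplasmic reticulum list from 9 to 5, of the coat proteins from 6 to 3 and of mitosis from 8 to 16. Mitosis had 5 lower calls without NC replicate 2 or si-circ235-2 replicate 1. The higher calls of the p53 list went from 9 to 5 and 4 without the first and the other si-circ235-2 library. For the zinc finger genes the 16 higher calls became 7 without NC replicate 2 and 8 without si-circ235-2 replicate 1. The 8 lower calls of the heat shock list became 3 to 5 without any 1 of the other libraries, and the 5 lower calls of the aminoacyl-tRNA synthetases became 2 without NC replicate 2 or either si-circ235-2 library. The 5 higher calls of the nuclear pore became 2 or 3 without any of those 3 libraries.

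Some genes printed with values overlap another tested gene on the opposite strand, and the reads of such a pair cannot be told apart. Beside the opposite-strand pairs already given these were PFDN6 with WDR46 and RGL2, RPL36 with LONP1 and MICOS13, LSM7 with SPPL2B, POLR2L with CD151, IGF2BP3 with MALSU1, ASAP2 with ITGB1BP1, COL4A1 with COL4A2, SF3A2 with PLEKHJ1, RRN3 with PDXDC1, BOP1 with SCX, NPC1 with RMC1, CNOT1 with SETD6 and ENSG00000276259, ITGB1 with ITGB1-DT, ANGPTL4 with RAB11B-AS1, ZNF699 with ENSG00000267510 and CCNY with CCNY-AS1. CPNE1 and RBM12 share a strand, as do ENSG00000269825 and ZNF83.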

How the data were processed

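RNA from 6 T24 libraries, 2 per condition, was sequenced by the authors after poly(A) enrichment, without strand information. The authors deposited raw counts per gene as whole numbers, and 0 columns were left unused. Their processing notes name FastQC, cutadapt, STAR and hg38, while no source used here names the counting tool or its annotation. Identifiers were matched to GENCODE 29 on GRCh38 (99.5% found), and duplicate rows of the pseudoautosomal genes on the Y chromosome were dropped.

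These counts went into edgeR 4.0.16 under R 4.3.3 (genes kept by filterByExpr with the condition as group, TMM factors, quasi-likelihood test with 1 mean per condition over 6 libraries, contrast si-circ235-2 minus NC, Benjamini-Hochberg adjustment over 14415 genes, threshold 0.05); SE is the log2 fold change divided by the square root of F. For the trend-removed fit, splines with 5 degrees of freedom of log2 length and of GC content of each gene's longest transcript were fitted per library and used as offsets; 29 genes had no length or GC value. Totals of 15373992 to 19912893 counts make counting error small beside the spread of 2 replicates for all but the lowest genes. Where cultures were not separate, p-values cover technical spread alone. The 2 replicates of a condition differed by more than sampling noise (chi-square over degrees of freedom 23.4 to 34.9).

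Named genes were those called in both fits with both si-circ235-2 libraries beyond both NC libraries: with a mean of at least 10 CPM over the 4 libraries, the 12 largest protein-coding rises and falls and the 2 largest of each among long noncoding genes; up to 3 members per gene list, with no limit on CPM; and CCNY, SLC16A3, PAK4 and CPNE1. No gene was called in opposite directions by the 2 fits. Other genes named behind small counts, or as overlapping or uncalled members, were chosen after their values were seen. Members, lists and tests were chosen with earlier results of these data known. The script was tested on simulated data. Also run were DESeq2 1.42.0, edgeR with factors of 1, all genes kept, the 4 libraries alone, the replicate number as a block, length or GC content alone, the length of all exons joined, a 1.5-fold threshold (edgeR glmTreat) and each library left out. The sequences of the siRNAs were not used here. Some genes that the rule names are not reported here.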

Additional observations from a re-analysis of the deposited data

How the results depend on the processing

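The 4530 calls of si-circ235-2 against NC became 1318 when a change beyond 1.5-fold was required, and stayed within 1.5 times of 4530 under DESeq2 (4613), with every gene kept (4780), with the 4 libraries alone (4212), and with length (3600), GC content (4755) or both removed (3728; 4103 with the length of all exons joined). Without TMM factors there were 4467, but 3173 higher and 1294 lower (71% higher, against 50.1%), with a median of 0.25 over all genes. Leaving out 1 library gave 679 to 4197 calls, the lowest without NC replicate 1. With the trend removed the count was 431 when NC replicate 1 was left out, 2891 when NC replicate 2 was, 2594 and 2567 when si-circ235-2 replicates 1 and 2 were, and at most 3484 otherwise. The cause was not tested. The replicate numbers were not shown to pair the libraries (correlations of deviations of -0.09, 0.15 and 0.14), and with the replicate block there were 4750 calls, or 3073 with the trend removed as well. Of the 24 largest changes, all kept their call except SINHCAF without NC replicate 1; ACACA, ASAP2, SEM1, SINHCAF, TMEM238 and ZNF358 without that library and with the trend removed; and SEM1 without si-circ235-2 replicate 2 and with the trend removed. The number of the 28 largest coding and noncoding changes called against si-circ235-1 was 26, and 21 to 26 under every alternative run. CCNY changed sign without TMM factors (0.17) and without si-circ235-2 replicate 2 (0.016, the highest of -0.19 to 0.016 when 1 library was left out), and was called in neither. With 2 libraries per condition, small changes could not be resolved.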
